A study of Mus musculus with 9 samples.

Results

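The transcripts of 33 genes of the autophagy machinery were followed in hindlimb skeletal muscle of SMA mice and wild type (WT) mice. The genes were taken by symbol from a list of autophagy initiation, conjugation, cargo receptor, regulator and lysosome membrane genes, and all 33 were among the 32594 genes of the count table. The 9 libraries came from 4 SMA samples and 5 WT samples, all on the FVB/N background. SMA stands for the SMN delta 7 mouse, a model of spinal muscular atrophy in which too little survival motor neuron protein is made. The allele structure, age and litter are not given in the labels, and nothing there says whether a library holds 1 animal or a pool, so the p-values speak for the spread of these libraries alone, part of which may be technical. Totals ran from 30746646 to 35087722 counts in SMA libraries and from 24917665 to 34094645 in WT libraries. Expression from the Y chromosome was present in 1 SMA library of 4 and in 4 WT libraries of 5, so sex was uneven between the groups.

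Autophagy encloses part of the cytoplasm in a double membrane, the autophagosome, and delivers it to the lysosome for breakdown. A kinase complex starts the process, a lipid kinase complex marks the membrane, and 2 linked conjugation reactions attach small ubiquitin-like proteins of the ATG8 family to it. Cargo receptors bind the ATG8 proteins, and fusion with lysosomes completes the degradation. In skeletal muscle the pathway removes worn organelles and aggregated protein, and it is known to be switched on in fasting and after loss of nerve supply.

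Of the 33 autophagy genes, 15 rose, 8 fell and 10 did not pass in SMA muscle (edgeR's quasi-likelihood test, Benjamini-Hochberg adjusted over 15873 genes, threshold 0.05). The background is high, since 27.7% of all genes tested rose and 27.2% fell. Among the members 45.5% rose and 24.2% fell, so their share of falls was close to the background. Their median log2 fold change was 0.19, beside 0.0060 for all genes. SMA and WT libraries did not overlap for 13 members with SMA above, where the background is 22.6%, and for 8 with SMA below, where it is 21.7%. Every member passed the filter on low counts, with at least 220 reads in every library.

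Most of the falls depended on how libraries were scaled. With scaling to total counts alone, which raised the median of all genes by 0.23 on the log2 scale, 23 members rose against a background of 40.2% and 2 fell against 13.6%. The 15 rises and the falls of Ulk2 and Trp53inp2 were called under the main scaling and under scaling to total counts. Total-count scaling moved log2 fold changes upward, so it put the falls to the test but hardly the rises. With the sex of each library as a covariate 14 members rose (background 22.4%) and 6 fell (background 21%). Without WT 5 and SMA 3, 18 rose (background 29.4%) and 7 fell (background 29.5%). Among the 15 rises, WT 5 was the WT library nearest to the SMA mean for 12, and SMA 3 the SMA library nearest to the WT mean for 8. Leaving them out therefore favoured rises, so the 18 are no independent check.

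**Figure D1:**
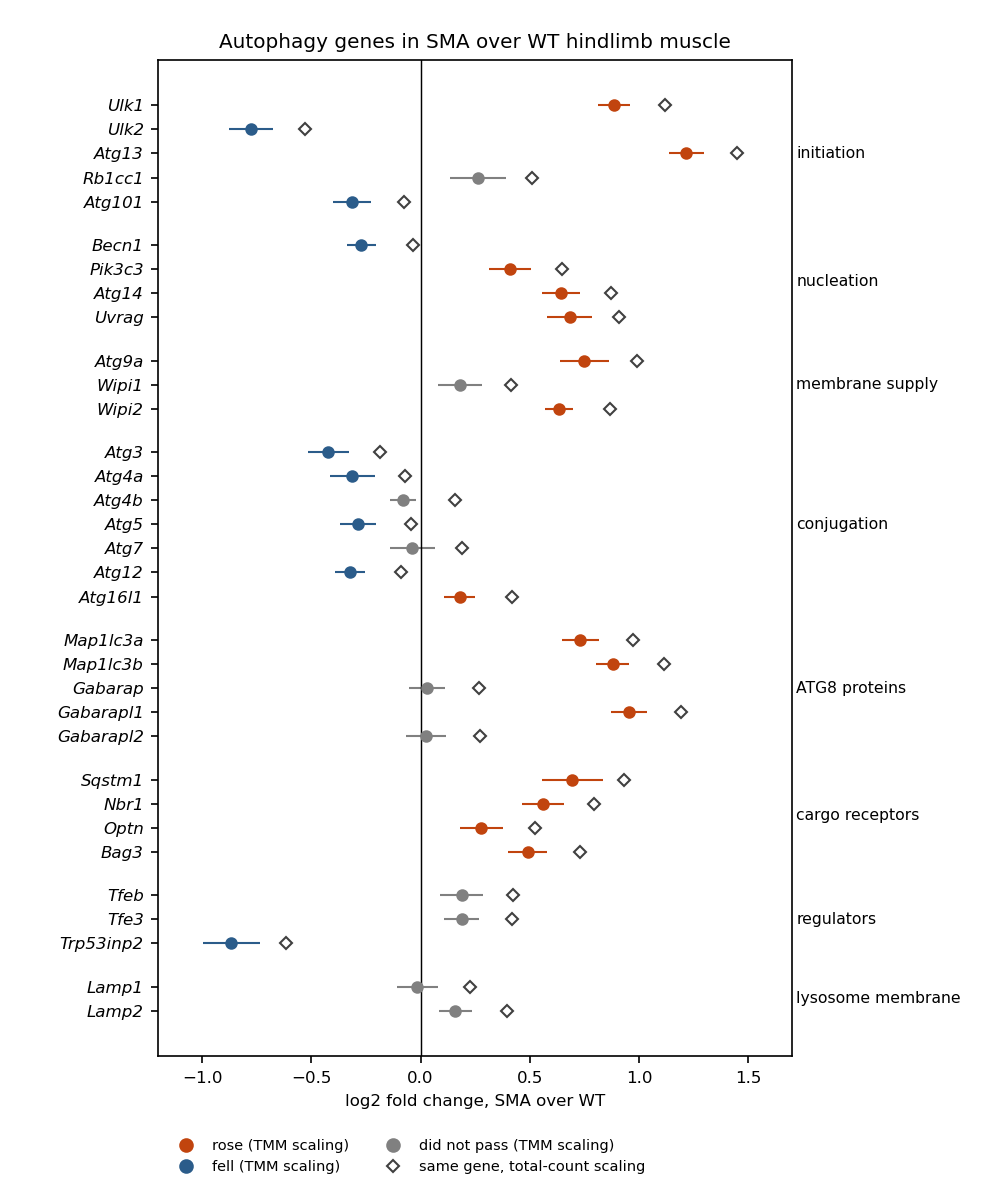
Log2 fold change of each of the 33 autophagy genes in SMA over WT muscle with its standard error (circles, coloured by call, 4 SMA and 5 WT libraries), and under scaling to total counts (diamonds), ordered by role. Atg13 lies farthest to the right at 1.22 and Trp53inp2 farthest to the left at -0.87, and most conjugation genes lie near or below 0, with their diamonds nearer to 0 or above it.

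Smn1, the gene lost in this model, had 1.80, 2.24, 1.40 and 2.72 CPM in SMA 1 to 4 and 13.1, 13.5, 13.8, 11.1 and 13.3 CPM in WT 1 to 5, where CPM is the count scaled to the effective (TMM) size of its library. Every SMA library was below every WT library, as the genotype labels have it. The muscle fibre markers Ckm, Acta1, Tnnt3, Ttn, Mylpf and Des summed to 51253 to 61084 CPM in SMA libraries and 91556 to 133284 CPM in WT libraries, so muscle RNA was abundant in every library although 5 of the 6 markers fell. Of 10 macrophage markers 6 fell and 0 rose, with sums of 97.1 to 127 CPM in SMA libraries and 151 to 194 CPM in WT libraries. Of 5 Schwann cell markers 4 rose, with sums of 725 to 1697 CPM in SMA libraries and 274 to 654 CPM in WT libraries, and of 6 fibroblast markers 5 fell and 1 rose, with sums of 1816 to 2691 CPM in SMA libraries and 3091 to 5506 CPM in WT libraries. The endothelial markers summed to 535 to 629 CPM in SMA libraries and 537 to 671 CPM in WT libraries, and the erythroid markers to 603 to 958 CPM in SMA libraries and 1215 to 2039 CPM in WT libraries. Of the markers listed, Lep had no read in 1 or more libraries, and no marker matched in the table was under 1 CPM throughout. Adipocyte markers summed to 9.34 to 37.9 CPM in SMA libraries and 14.3 to 65.1 CPM in WT libraries and satellite cell markers to 251 to 267 CPM in SMA libraries and 260.4 to 337 CPM in WT libraries, with 2 of 5 falling and 0 rising in the adipocyte list, and 3 of 5 rising and 2 falling in the satellite cell list. Beside these marker counts, 27.7% of all genes tested rose and 27.2% fell. The part of these cell types in the autophagy genes' values was not tested. In whole muscle, fewer cells of a type and less RNA per cell cannot be told apart.

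The initiating kinases moved in opposite directions. Ulk1 and Ulk2 encode related kinases that receive signals from AMPK and mTORC1 and start autophagosome formation. Ulk1 (mm10 chromosome 5, 110784488 to 110810097, minus strand) had 124, 121, 108 and 125 CPM in SMA 1 to 4, against 62.3, 60.7, 67.5, 63.8 and 68.9 CPM in WT 1 to 5. Its SMA libraries lay above all WT libraries, and Ulk1 rose by 0.88 ± 0.074 on the log2 scale (SE; adjusted p = 1.95e-06). Ulk2 (chromosome 11, 61775649 to 61855073, minus strand) had 58.7, 63.7, 60.2 and 60.4 CPM in SMA libraries, against 97.5, 94.9, 104, 92.7 and 131 CPM in WT libraries. Its SMA libraries were close together below every WT library, while WT 5 was the highest, and the log2 fold change was -0.78 ± 0.10 (adjusted p = 6.19e-05). Per kilobase of transcript, Ulk1 made up 69.99, 67.6, 66.3 and 69.5% of the Ulk1 and Ulk2 level in SMA libraries, against 41.3, 41.3, 41.6, 43.1 and 36.7% in WT libraries. The means were 68.4 ± 1.69% in SMA and 40.8 ± 2.42% in WT (SD, n = 4 and 5; exact permutation test, two-sided, with p = 0.00794 and 0.0113 after adjustment over 10 shares), and this p is the smallest that the possible divisions of the libraries can give. A share needs no scaling between libraries, so Ulk2 led in all 5 WT libraries and Ulk1 in all 4 SMA libraries whichever scaling is used.

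Atg13, the adaptor that holds the kinase complex together, had the largest rise among the 33 members. It had 83.2, 80.9, 67.6 and 75.9 CPM in SMA libraries, against 34.8, 31.9, 32.8, 30.8 and 35.2 CPM in WT libraries. The lowest SMA library, SMA 3, was still far above the highest WT library, and Atg13 rose 2.32-fold, or 1.22 ± 0.080 on the log2 scale (adjusted p = 3.49e-07). The scaffold gene Rb1cc1, whose product is also called FIP200, had 65.3, 68.99, 62.7 and 68.7 CPM in SMA libraries and 54.5, 47.5, 49.4, 49.04 and 76.5 CPM in WT libraries. WT 5 stood above all other libraries for Rb1cc1, and its log2 fold change of 0.26 ± 0.13 did not pass (adjusted p = 0.103). Without WT 5 it was 0.41 with an adjusted p of 5.36e-04. Atg101, which binds and stabilises Atg13, was lower in SMA, at -0.32 ± 0.088 (adjusted p = 0.00915) with no overlap between groups, but under scaling to total counts it was -0.077 and was not called. With sex as a covariate Atg101 was at -0.31 and was not called either (adjusted p = 0.0505).

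**Figure D2:**
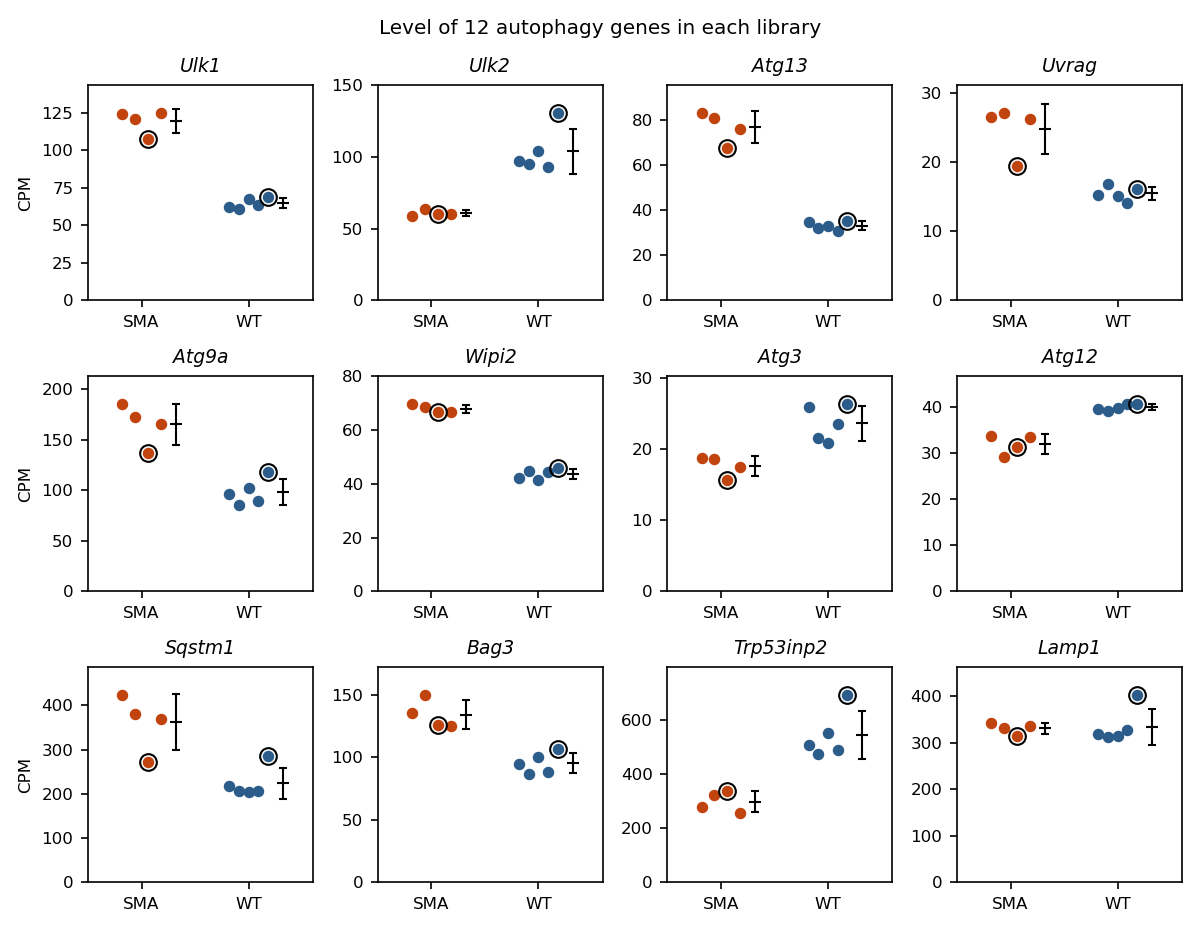
CPM of 12 autophagy genes in each library, SMA at left and WT at right in each panel, with the mean and SD beside the points and with SMA 3 and WT 5 ringed. Ulk1, Atg13 and Wipi2 show separate groups, Ulk2 and Trp53inp2 are lower in SMA, Lamp1 overlaps, and for Sqstm1 the ringed SMA 3 lies below the ringed WT 5.

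Of the 4 genes of the lipid kinase complex, 3 rose and Becn1 fell with TMM scaling, beside 27.7% and 27.2% of all genes tested. This complex makes the lipid mark on which the autophagosome grows, with Pik3c3 as its catalytic subunit, Becn1 as its scaffold, and either Atg14, for autophagosomes, or Uvrag, for endosomes, as a further subunit. Atg14 had 15.6, 13.95, 13.4 and 16.2 CPM in SMA libraries, against 9.67, 10.03, 9.57, 9.02 and 9.11 CPM in WT libraries, without overlap. Uvrag had 26.5, 27.2, 19.4 and 26.3 CPM in SMA libraries, against 15.3, 16.8, 15.1, 14.1 and 16.1 CPM in WT libraries, with SMA 3 well below the other SMA libraries yet above all WT libraries. The log2 fold changes were 0.64 ± 0.087 for Atg14 and 0.68 ± 0.10 for Uvrag (adjusted p = 7.16e-05 and 1.77e-04). Pik3c3 rose less, by 0.41 ± 0.10, from libraries of 16.5 to 19.7 CPM in SMA and 12.4 to 16.3 CPM in WT (adjusted p = 0.00355). Becn1 had 45.8, 47.5, 48.1 and 45.5 CPM in SMA libraries and 54.6, 55.8, 55.5, 54.04 and 61.9 CPM in WT libraries. It was lower in every SMA library, at -0.27 ± 0.067 (adjusted p = 0.00459), but it was -0.033 and not called under scaling to total counts. In GENCODE M21, 43.9% of the annotated Becn1 exon bases overlap Cntd1 on the opposite strand, and 17.6% of those of Uvrag overlap Gm45187 there. The strand setting of the counting is not given in the sources used here. Cntd1 itself had 0.842 to 1.04 CPM in SMA libraries and 0.610 to 0.944 CPM in WT libraries, far below Becn1.

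Atg9a and Wipi2, which serve the growth of the membrane, also rose. Atg9a is the transmembrane protein of the vesicles that seed the autophagosome, and its level was 186, 173, 137 and 166 CPM in SMA libraries, against 96.9, 85.7, 102, 89.3 and 118 CPM in WT libraries. SMA 3 was the lowest of the SMA libraries and WT 5 the highest of the WT libraries for Atg9a, still without overlap, and the gene rose by 0.75 ± 0.11 on the log2 scale (adjusted p = 1.58e-04). In GENCODE M21, 31.8% of the annotated Atg9a exon bases overlap Gm29253 on the same strand. Gm29253 is not among the genes counted under that name, and its part in the Atg9a counts was not tested. Wipi2 binds the lipid mark and recruits the conjugation complex. Its libraries were tight in both groups, at 69.9, 68.6, 66.9 and 66.7 CPM in SMA and 42.4, 44.8, 41.4, 44.5 and 46.1 CPM in WT, a rise of 0.63 ± 0.063 (adjusted p = 7.21e-06). The related Wipi1 had 78.8, 78.2, 60.6 and 74.5 CPM in SMA libraries and 62.6, 59.7, 61.1, 61.97 and 77.2 CPM in WT libraries, and its log2 fold change of 0.18 ± 0.10 did not pass (adjusted p = 0.153). Without WT 5 it passed at 0.25 (adjusted p = 0.0292), and without SMA 3 at 0.26 (adjusted p = 0.0284). As a share of Wipi1 and Wipi2 per kilobase, Wipi1 made up 50.5 ± 2.75% in SMA and 58.3 ± 2.09% in WT (SD, n = 4 and 5; exact permutation test, p = 0.00794, adjusted p = 0.0113).

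Among the conjugation enzymes more genes fell than rose, though the falls were not called under scaling to total counts. Atg7 is the activating enzyme of both reactions, Atg3 the enzyme that hands over ATG8 proteins, Atg5, Atg12 and Atg16l1 form the complex that directs them to the membrane, and the Atg4 proteases trim ATG8 proteins before and after. Of these 7 genes 4 (57.1%) fell, 1 (14.3%) rose and 2 did not pass, beside 27.2% and 27.7% of all genes tested. Their median was -0.29, beside 0.0060 for all genes. Atg3 had 18.7, 18.5, 15.7 and 17.5 CPM in SMA libraries, against 25.9, 21.5, 20.9, 23.5 and 26.4 CPM in WT libraries. Atg12 had 33.8, 29.1, 31.4 and 33.6 CPM in SMA libraries, against 39.6, 39.2, 39.8, 40.8 and 40.7 CPM in WT libraries. All SMA libraries were below all WT libraries for both genes, with log2 fold changes of -0.42 ± 0.093 and -0.32 ± 0.068 (adjusted p = 0.0023 and 0.00166). Atg5 fell by 0.29 ± 0.083, with libraries of 13.8 to 15.2 CPM in SMA and 15.8 to 19.9 CPM in WT (adjusted p = 0.0117). With sex as a covariate Atg5 was at -0.29 and was not called (adjusted p = 0.0516).

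Under scaling to total counts none of the falls in this group was called, with log2 fold changes of -0.19 for Atg3, -0.090 for Atg12, -0.045 for Atg5 and -0.070 for Atg4a. Atg4a changed by -0.31 ± 0.10 (adjusted p = 0.0225), and lost its call also without SMA 1 (adjusted p = 0.0652), without SMA 2 (adjusted p = 0.0613) and without WT 5 and SMA 3 together (adjusted p = 0.0573). Its reads may also match Atg4a-ps, a copy annotated as protein-coding that is 99.3% identical over 2115 bases in GENCODE M21. That copy is not among the genes counted under this name. Atg4b had 28.7, 29.5, 30.2 and 29.6 CPM in SMA libraries and 31.4, 30.6, 31.6, 30.8 and 31.4 CPM in WT libraries, a narrow gap with a log2 fold change of -0.079 ± 0.060 that did not pass (adjusted p = 0.283) and that was 0.16 under scaling to total counts. Atg7 was at -0.039 ± 0.10 (adjusted p = 0.772) and at 0.19 with that scaling. The call of Atg16l1, at 0.18 ± 0.071 with an adjusted p of 0.04996, stood at the threshold and was lost in 12 of 16 alternatives.

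The ATG8 family divided into 3 genes (60%) that rose and 2 that did not pass, while 27.7% of all genes tested rose. The proteins are made with a short tail after a glycine, and Atg4 cuts behind that glycine to expose the end that is joined to the membrane lipid. The last 60 bases of each coding sequence, from GENCODE M21 transcripts of the C57BL/6J reference, are shown with the last glycine codon in capitals. That glycine is the conjugation site that the 5 genes share. Their tails are not all alike, though Map1lc3a and Gabarapl2 have the same tail codon.
Map1lc3a: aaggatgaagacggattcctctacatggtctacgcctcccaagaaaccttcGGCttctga
Map1lc3b: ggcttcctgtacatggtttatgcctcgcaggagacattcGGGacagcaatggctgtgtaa
Gabarap: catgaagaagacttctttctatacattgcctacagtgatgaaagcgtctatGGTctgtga
Gabarapl1: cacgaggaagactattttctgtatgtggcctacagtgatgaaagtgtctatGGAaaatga
Gabarapl2: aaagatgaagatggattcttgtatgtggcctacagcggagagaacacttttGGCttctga
The tail after the glycine is 5 codons in Map1lc3b and 1 codon in each of the other 4 genes. Over the aligned coding sequences Map1lc3a and Map1lc3b were 74.7% identical, Gabarap and Gabarapl1 74.9%, and Map1lc3b and Gabarapl1 50.4%. The genes that rose thus came from both branches of the family, the LC3 branch and the GABARAP branch.

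Map1lc3b (chromosome 8, 121590361 to 121598760, plus strand), the LC3 gene most used as an autophagosome marker, had 190.1, 167, 169.9 and 163 CPM in SMA libraries, against 90.6, 88.7, 91.96, 96.9 and 101 CPM in WT libraries. Map1lc3a had 164, 155, 185 and 153 CPM in SMA libraries, against 99.2, 94.04, 91.5, 107 and 103 CPM in WT libraries. Gabarapl1 (chromosome 6, 129533160 to 129542346, plus strand) had 49.6, 55.6, 54.2 and 46.3 CPM in SMA libraries, against 27.3, 26.9, 23.9, 25.8 and 28.8 CPM in WT libraries. All SMA libraries lay above all WT libraries for these 3 genes, and SMA 3 was not the lowest SMA library for any of them. They rose by 0.88 ± 0.076 for Map1lc3b, 0.73 ± 0.083 for Map1lc3a and 0.95 ± 0.081 for Gabarapl1 on the log2 scale (adjusted p = 2.50e-06, 1.96e-05 and 2.15e-06). Gabarap, by contrast, had 137, 131, 155 and 122 CPM in SMA libraries and 134, 134, 124, 138 and 137 CPM in WT libraries. Gabarapl2 had 39.2, 38.6, 46.5 and 44.2 CPM in SMA libraries and 39.1, 39.4, 38.5, 40.9 and 48.98 CPM in WT libraries. The groups overlapped for both, with log2 fold changes of 0.029 ± 0.083 and 0.025 ± 0.092 (adjusted p = 0.789 and 0.833), although both were called as rises under scaling to total counts, at 0.27 and 0.27.

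Shares within the family are free of that choice. Per kilobase of transcript, Gabarap took 27.2 ± 0.809% in SMA and 37.5 ± 0.860% in WT, where it was the most abundant of the 5 genes. Map1lc3a, the most abundant in SMA by this measure, took 39.9 ± 0.852% in SMA and 33.7 ± 0.801% in WT. Which gene leads depends on the length used. In mean CPM without length, Map1lc3b led in SMA, at 172 against 164 for Map1lc3a. With all annotated exons, 1844 bases for Gabarap and 1181 for Map1lc3a, Map1lc3a would lead in WT too. Map1lc3b took 18.5 ± 1.47% in SMA and 14.03 ± 0.474% in WT, Gabarapl1 7.65 ± 0.629% in SMA and 5.52 ± 0.271% in WT, and Gabarapl2 6.80 ± 0.620% in SMA and 9.33 ± 0.675% in WT (SD, n = 4 SMA and 5 WT for each). Each of the 5 shares had an exact permutation p of 0.00794 and an adjusted p of 0.0113, and since the shares add up to the whole they are not separate results. The summed level of the family was 344 to 406 CPM per kilobase in SMA libraries and 247 to 278 in WT libraries. Processed pseudogenes at least 98% identical over 300 bases or more exist for Map1lc3b, with 3, and for Gabarapl2, with 2. None is in the count table under its GENCODE M21 name, and whether reads matching both places were left out of the counting is not given. Gabarapl1 shares exon bases with 1700101I11Rik on the opposite strand, which had 0.160 to 0.196 CPM in SMA libraries and 0 to 0.142 CPM in WT libraries.

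**Figure D3:**
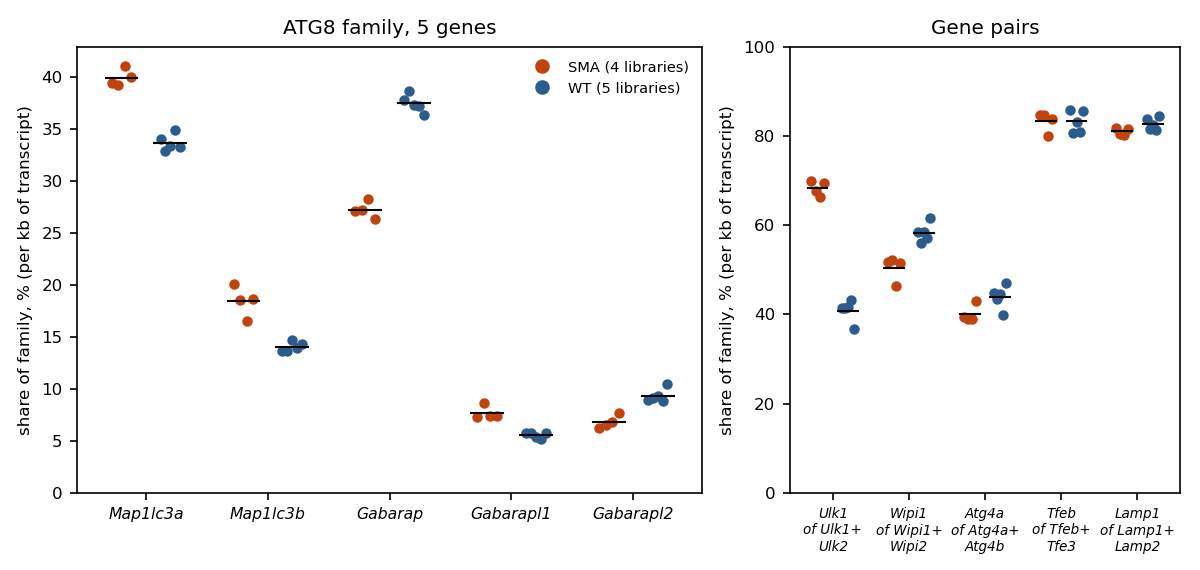
Share of each gene in its family, as a percent of counts per kilobase of transcript, in each library (points) with group means (lines), SMA left of WT. At left Gabarap and Gabarapl2 hold smaller shares and Map1lc3a, Map1lc3b and Gabarapl1 larger shares in SMA, and at right the Ulk1 share is 68.4 ± 1.69% in SMA and 40.8 ± 2.42% in WT while the Tfeb shares overlap.

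All 4 cargo receptor genes rose with TMM scaling, beside 27.7% of all genes tested, though the call of Optn was lost in 6 of 16 alternatives. Sqstm1 encodes p62, which binds ubiquitinated cargo and is itself degraded with it, so its RNA and protein levels need not move together. It had 424, 380.2, 273 and 369 CPM in SMA libraries, against 217, 205, 204, 205 and 285 CPM in WT libraries. SMA 3 was below WT 5, so the groups overlapped by that pair, and the rise was 0.69 ± 0.14 on the log2 scale (adjusted p = 0.0012). In GENCODE M21, 17.3% of the annotated Sqstm1 exon bases overlap Mrnip on the opposite strand, which is not among the genes counted under that name. Per kilobase of transcript Sqstm1 had the highest level of the 33 members in SMA, 178 CPM per kilobase, and was behind Lamp1 and Trp53inp2 in WT with 109.7. Nbr1, another ubiquitin-binding receptor, had 174, 186, 140.2 and 172 CPM in SMA libraries, against 121, 107, 113, 104 and 125 CPM in WT libraries, a rise of 0.56 ± 0.10 (adjusted p = 4.32e-04) without overlap.

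Bag3 is a co-chaperone that sends damaged Z-disc proteins of muscle to autophagy. Its level was 136, 150.0, 125.97 and 125 CPM in SMA libraries, against 94.7, 86.98, 100.4, 88.5 and 107 CPM in WT libraries, a rise of 0.49 ± 0.088 (adjusted p = 5.82e-04) without overlap. Optn, a receptor known for clearing mitochondria, changed least, by 0.28 ± 0.10 (adjusted p = 0.0304), from libraries of 46.4 to 59.2 CPM in SMA and 38.6 to 51.9 CPM in WT that overlapped. It lost its call when SMA 2, SMA 4 or any of WT 1 to 4 was left out, with adjusted p-values between 0.0504 and 0.101.

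Of the 3 regulators, Trp53inp2 fell and 2 did not pass with TMM scaling, beside 27.2% of all genes tested that fell. Tfeb and Tfe3 are related transcription factors that drive lysosomal and autophagy genes once they enter the nucleus, a step that RNA levels do not show. Tfeb had 79.8, 71.3, 60.7 and 72.1 CPM in SMA libraries and 70.7, 54.7, 62.7, 56.5 and 67.2 CPM in WT libraries. Tfe3 had 20.6, 18.5, 21.5 and 19.9 CPM in SMA libraries and 16.5, 18.6, 17.95, 19.1 and 16.2 CPM in WT libraries. Groups overlapped for both, at 0.19 ± 0.10 and 0.19 ± 0.081 on the log2 scale (adjusted p = 0.129 and 0.0676), while both were called under scaling to total counts, at 0.43 and 0.42. Tfeb also passed without SMA 3, at 0.26 with an adjusted p of 0.0362. The Tfeb share of the pair was 83.3 ± 2.17% in SMA and 83.3 ± 2.48% in WT (SD, n = 4 and 5; exact permutation test, p = 0.984, adjusted p = 0.984).

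Trp53inp2, also called DOR, encodes a protein that binds ATG8 proteins and supports autophagosome formation, and it is abundant in muscle. It had 278, 323, 339 and 257 CPM in SMA libraries, against 509.8, 476, 554, 490.0 and 695 CPM in WT libraries. It was lower in all SMA libraries than in any WT library and had the most negative change of the 33 members, -0.87 ± 0.13 on the log2 scale (adjusted p = 1.69e-04), or -0.61 with scaling to total counts, where it was still called. Its relative Trp53inp1, a p53 target outside the 33 members, went the other way, with 84.4, 74.6, 53.5 and 73.2 CPM in SMA libraries, against 17.5, 23.3, 19.2, 24.6 and 19.7 CPM in WT libraries, a rise of 1.77 ± 0.14 (adjusted p = 1.02e-06).

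The lysosome membrane genes Lamp1 and Lamp2 did not pass. Their products are the main glycoproteins of the lysosomal membrane, and loss of LAMP2 in humans causes a muscle disease with stalled autophagy. Lamp1 had 343, 332, 315 and 336 CPM in SMA libraries and 318, 312, 314, 327 and 403 CPM in WT libraries, with WT 5 above all others, and a log2 fold change of -0.015 ± 0.094 (adjusted p = 0.907). Lamp2 had 124, 129.6, 125 and 122 CPM in SMA libraries and 99.4, 114, 108, 120.4 and 119 CPM in WT libraries. Every SMA library was above every WT library for Lamp2, by a small margin, and the change of 0.16 ± 0.076 did not pass (adjusted p = 0.0948). Both were called as rises under scaling to total counts, at 0.23 and 0.39, and the Lamp1 share of the pair, 81.1 ± 0.750% in SMA and 82.8 ± 1.38% in WT (SD, n = 4 and 5), did not pass (exact permutation test, p = 0.0794, adjusted p = 0.0882).

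Promoters were searched for CACGTG, the core to which TFEB and TFE3 bind, because Lamp1 is a textbook target with that element. RefSeq windows of 250 bases before to 50 after the start (GRCm38.p6) were found for 27 of the 33 members, 32 windows in all. On both strands CACGTG occurred in 5 of these 32 windows, those of Lamp1, Atg3, Atg5, Atg7 and Atg14, and in 7.15% of all 32851 windows. The full CLEAR palindrome, which contains the core, was in 0 member windows and 0.326% of all windows, and the FoxO motif GTAAACA was in 0 member windows and 3.65% of all. The upstream stretches of the 2 members with more than 1 match are shown with CACGTG in capitals, since they are the densest cases and neither gene rose with TMM scaling.
Lamp1 (chr8:13159070-13159160, plus strand): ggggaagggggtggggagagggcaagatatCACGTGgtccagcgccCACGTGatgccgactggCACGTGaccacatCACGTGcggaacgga
Atg3 (chr16:45158705-45158773, plus strand): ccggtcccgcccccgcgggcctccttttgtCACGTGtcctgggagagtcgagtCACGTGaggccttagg
The Lamp1 stretch holds 4 matches and the Atg3 stretch 2. Of the 5 members with a match, Atg14 rose, Atg3 and Atg5 fell, and Lamp1 and Atg7 did not pass with TMM scaling. Under scaling to total counts Atg14 and Lamp1 rose, and Atg3, Atg5 and Atg7 were not called, so the directions depended on the scaling. The Atg7 match was in a window at 114670846 to 114671145 on chromosome 6, inside the gene, which starts at 114643097 in GENCODE M21. None of Ulk1, Atg13, Map1lc3b, Gabarapl1 and Wipi2, the 5 members with the lowest adjusted p among those that rose, had these letters in its window, which says nothing about the factor elsewhere.

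SMA 3 and WT 5 stood apart for many members. Among the 23 members called, SMA 3 was the SMA library nearest to the WT mean for 10, SMA 4 for 7, SMA 1 for 4 and SMA 2 for 2. WT 5 was the WT library nearest to the SMA mean for 12 members, all of them among the 15 that rose. WT 5 was also high for genes that fell, such as Ulk2 and Trp53inp2. Of all libraries WT 5 had the lowest TMM factor, 0.828, and SMA 3 the highest, 1.165. A low factor raises every CPM of its library and a high factor lowers it. How much of the position of these libraries comes from the scaling was not tested. The heat map of all 33 genes shows SMA 3 paler than the other SMA libraries for Uvrag, Atg9a, Sqstm1 and Nbr1 but not for Map1lc3a and Gabarapl1.

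**Figure D4:**
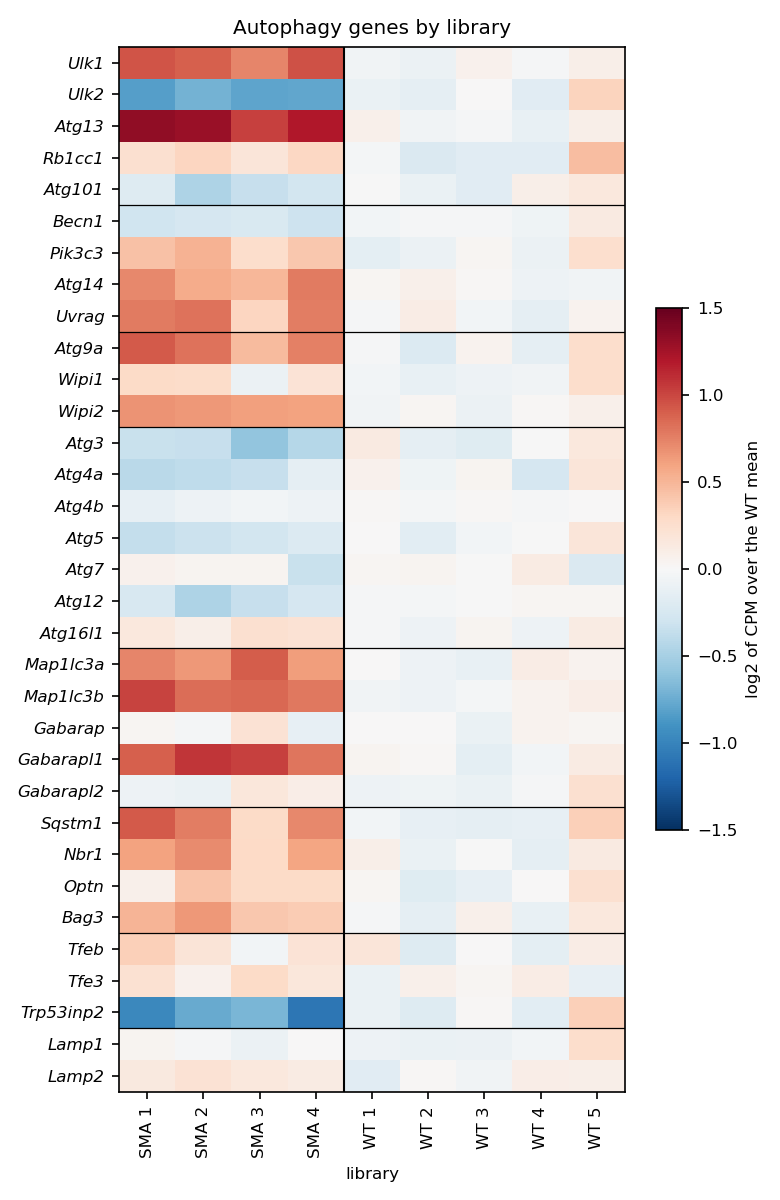
Log2 of CPM over the WT mean for each of the 33 autophagy genes (rows, by role) in each library (columns, SMA left of WT). Ulk2 and Trp53inp2 are blue in all 4 SMA libraries, the ATG8 genes Gabarap is pale in all libraries, and WT 5 is tinted red for many genes.

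Other genes of the pathway, from 6 lists, gave the setting. Among 28 further autophagy genes 11 (39.3%) rose, 4 (14.3%) fell and 13 did not pass, beside 27.7% and 27.2% of all genes tested. Atg2a, a lipid transfer protein that feeds the growing membrane, had 78.98, 76.8, 66.5 and 72.6 CPM in SMA libraries, against 34.03, 31.2, 35.9, 34.1 and 34.6 CPM in WT libraries, a rise of 1.12 ± 0.074 (adjusted p = 3.78e-07). Named after their values were seen, its relative Atg2b rose by 0.59 ± 0.093, Wdr45, a lipid-binding relative of the Wipi genes, by 1.01 ± 0.10, and Zfyve1, which marks the membrane from which autophagosomes arise, by 1.13 ± 0.11. Wdr45b, the other Wipi relative of the list, did not pass, at 0.13 ± 0.071 (adjusted p = 0.145). The 4 that fell, also named after their values were seen, were Atg4c at -0.64 ± 0.12, Snap29 at -0.40 ± 0.11, Ykt6 at -0.33 ± 0.068 and Atg10 at -0.27 ± 0.11, the last at the threshold with an adjusted p of 0.0495, and under scaling to total counts 1 gene of the list fell. Among 17 further cargo receptors and adaptors 8 (47.1%) rose, 3 (17.6%) fell and 6 did not pass. Fam134b, now called Retreg1 and a receptor for the endoplasmic reticulum, had 411, 487, 329 and 383 CPM in SMA libraries, against 122, 118, 141, 124 and 151 CPM in WT libraries, a rise of 1.62 ± 0.12 (adjusted p = 7.96e-07). Stbd1, a glycogen-binding receptor, had 62.95, 56.7, 45.7 and 80.8 CPM in SMA libraries, against 208, 194, 206, 205 and 220.0 CPM in WT libraries, a change of -1.75 ± 0.14 (adjusted p = 1.38e-06). The mitophagy receptors of the list, named after their values were seen, were divided: Bnip3 and Bnip3l rose by 1.32 ± 0.16 and 0.80 ± 0.075, while Fundc1 was at -0.71 ± 0.10 (adjusted p = 6.87e-05).

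Of 34 genes of AMPK, mTORC1 and TFE control tested, 10 (29.4%) rose, 13 (38.2%) fell and 11 did not pass, beside 27.7% and 27.2% of all genes. Prkag3, the AMPK subunit found mainly in fast glycolytic muscle, had 50.6, 52.9, 53.2 and 41.7 CPM in SMA libraries, against 246, 189.6, 254, 212 and 312 CPM in WT libraries, a change of -2.29 ± 0.15 (adjusted p = 3.02e-07). Flcn, whose product folliculin governs whether mTORC1 keeps TFEB and TFE3 out of the nucleus, had 184, 209, 164 and 193 CPM in SMA libraries, against 56.6, 72.7, 64.3, 72.98 and 76.9 CPM in WT libraries, a rise of 1.45 ± 0.10 (adjusted p = 6.81e-07).

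With TMM scaling, 22.2% of the vacuolar ATPase subunits and 23.7% of the other lysosomal genes rose, near the 27.7% of all genes tested. Of the same lists 16.7% and 26.3% fell, beside 27.2% of all genes. Of 18 vacuolar ATPase subunits, which acidify the lysosome, 4 rose, 3 fell and 11 did not pass, with Atp6v1h at 0.74 ± 0.093 and Atp6ap1 at -0.69 ± 0.079. Of 38 other lysosomal membrane proteins and hydrolases, 9 rose, 10 fell and 19 did not pass. Ostm1, the partner of the lysosomal chloride transporter, was at -1.32 ± 0.11 and Gusb, the hydrolase beta-glucuronidase, at -0.81 ± 0.089. Of 14 genes listed as chaperone partners of Bag3, among them also Hsf1, Flnc and Bag1, 3 (21.4%) rose, 3 (21.4%) fell and 8 did not pass. The small heat shock protein gene Cryab was at 0.53 ± 0.11 and the co-chaperone gene Dnajb6 at 0.39 ± 0.072. Named after their values were seen, Hspb1 was at 0.57 ± 0.14, while Hspb8, Hspa4 and Hspb6 fell, at -0.60 ± 0.13, -0.43 ± 0.096 and -0.32 ± 0.093. The medians were 0.15 for further autophagy genes, 0.13 for further receptors, -0.016 for control genes, -0.024 for ATPase subunits, 0.016 for other lysosomal genes and 0.062 for chaperone partners. Under scaling to total counts, where 40.2% of all genes rose and 13.6% fell, 17 of the 34 control genes rose and 5 fell, 16 of the 38 other lysosomal genes rose and 2 fell, and 8 of the 18 ATPase subunits rose and 2 fell.

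**Figure D5:**
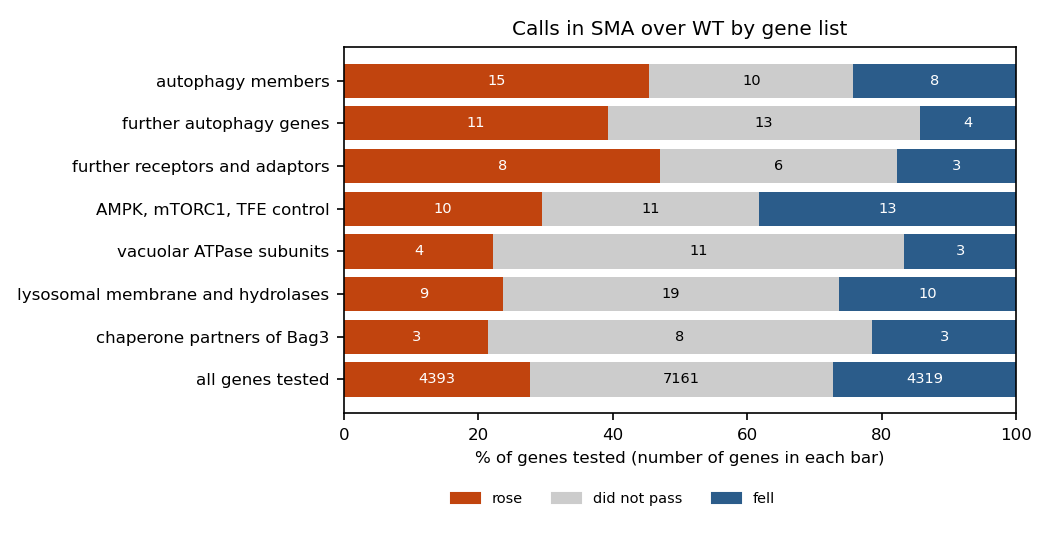
Percent of tested genes that rose, did not pass or fell in SMA over WT muscle for the 33 autophagy genes, 6 further lists and all genes tested, with gene numbers in the bars. The top 3 bars have larger shares of rises, 15 of 33, 11 of 28 and 8 of 17, than all genes tested, with 4393 of 15873, and the difference was not tested.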

How the data were processed

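RNA of hindlimb muscle was measured in 4 SMA and 5 WT libraries. Per the labels' protocols, RNA entered a stranded mRNA preparation and was sequenced as paired reads of 75 bases. The deposited table holds raw counts per gene. A second table from the authors holds a signal, the counts over a library's size factor (0.734 to 1.23), and served as a check. The submitters' processing notes name mm10, HTSeq 0.9.1 and DESeq2 1.16.1, without roles. Aligner and strand setting of the counting were not given in the sources used here.

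Counts were fitted in R 4.3.3 with edgeR 4.0.16 (filterByExpr, TMM, quasi-likelihood test on group, Benjamini-Hochberg over 15873 genes), and DESeq2 1.42.0 was an alternative. CPM uses the TMM-scaled library, and the SE is the log2 fold change divided by the root of F. Shares used APPRIS principal transcript lengths (GENCODE M21) and exact permutation tests. Copies were sought with blastn 2.17.0 and coding sequences aligned with Biopython 1.88. Members and lists were chosen with earlier results of these data known. All members were named, and from each further list the 2 genes with the lowest adjusted p. Of 198 other listed genes 193 matched by symbol and 2 through older names, while 3 had no match. No pair of libraries in a group agreed within sampling noise (chi-square per degree of freedom from 12 to 87.5). On simulated data for SMA against WT (15700 genes) 52.4% of 63 changes of 1.5-fold, 76.2% of 63 changes of 2-fold and 95.6% of 68 changes of 4-fold were recovered, with 10 false calls. Far fewer genes were changed there than were called in the real data, so the adjusted threshold was stricter and these rates need not hold here. Alternatives were other scalings, DESeq2, no filter, a sex covariate, a replicate block and libraries left out. Depth ran from 24917665 to 35087722 counts.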

Additional observations from a re-analysis of the deposited data

Results flagged for a closer look

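In groups of 4 or 5 libraries, a library was singled out when its gap to the nearest other library exceeded Dixon's critical share of the range, which chance does in about 1 of 20 groups, and 88 groups were looked at. WT 5 was high for Rb1cc1, at 76.5 CPM against 47.5 to 54.5 CPM in the other WT libraries, for Becn1, at 61.9 CPM against 54.04 to 55.8 CPM in the other WT libraries, and for Wipi1, at 77.16 CPM against 59.65 to 62.57 CPM in the other WT libraries. It was also high for Gabarapl2, at 48.98 CPM against 38.5 to 40.9 CPM in the other WT libraries, for Sqstm1, at 285 CPM against 204 to 217 CPM in the other WT libraries, and for Lamp1, at 403 CPM against 312 to 327 CPM in the other WT libraries. These CPM depend on the TMM factor, which was lowest in WT 5, at 0.828, and highest in SMA 3, at 1.165.

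SMA 3 was low for Uvrag, at 19.4 CPM against 26.3 to 27.2 CPM in the other SMA libraries, and SMA 4 was low for Atg7, at 11.7 CPM against 15.1 to 15.4 CPM in the other SMA libraries. For Smn1, WT 4 was low, at 11.15 CPM against 13.10 to 13.80 CPM in the other WT libraries.

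Among shares, SMA 2 had a Gabarapl1 share of the ATG8 family of 8.59% against 7.28 to 7.39% in the other SMA libraries, and WT 5 a Gabarapl2 share of 10.5% against 8.85 to 9.30% in the other WT libraries. The Ulk1 share of its pair was lowest in WT 5, at 36.7% against 41.3 to 43.1% in the other WT libraries. SMA 3 had a Wipi1 share of 46.4% against 51.6 to 52.1% in the other SMA libraries, and SMA 4 an Atg4a share of 42.9% against 38.95 to 39.4% in the other SMA libraries.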

How the results depend on the processing

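Of the 33 autophagy genes, 13 that rose and 2 that fell, Ulk2 and Trp53inp2, kept call and direction in all 16 alternatives. In the 15 other than scaling to total counts, 13 rises and 5 of the 8 falls did so. Scaling to total counts moved log2 fold changes upward, so it was hardly a test of the rises. That scaling gave 6385 rises and 2164 falls among all genes, 23 rises and 2 falls among members, 19 and 1 among further autophagy genes, 17 and 5 among control genes, 16 and 2 among lysosomal genes, 8 rises among ATPase subunits and 8 among chaperone partners, and moved Atg4b to 0.16, Atg7 to 0.19 and Lamp1 to 0.23. With the sex covariate 2 further autophagy genes and 7 control genes fell, beside 21% of all genes, and Lamp1 was at 0.019.

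The labels do not say whether replicate numbers pair the samples. Correlations of same-numbered deviations ran from -0.048 to 0.12, and 0 of 4 SMA libraries correlated best with their own number. So no pairing was seen, though so few libraries cannot exclude it. A fit with the replicate block (libraries 1 to 4) gave 15 rises and 7 falls among members, 7 falls among control genes, 5 rises among chaperone partners, and Lamp1 at 0.060, and Atg4a, at -0.26, was not called (adjusted p = 0.0986 by edgeR).

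Without WT 5 and SMA 3 together, 5 ATPase subunits fell and 6 chaperone partners rose, beside 29.5% and 29.4% of all genes. Gabarap was then at -0.033 and Lamp1 at 0.083. With each library left out in turn, 13 to 17 members rose and 7 to 8 fell, and 2 to 5 ATPase subunits fell, with 5 without SMA 3. Differences in share, in percentage points, ran from -4.88 to -3.13 for Atg4a, which passed without SMA 4 (adjusted p = 0.0446) and without WT 4 (adjusted p = 0.0357) by the exact permutation test, and from -0.60 to 1.09 for Tfeb, whose sign turned without SMA 1 (-0.43), SMA 2 (-0.42), SMA 4 (-0.14), WT 2 (-0.60) and WT 4 (-0.59). Log2 fold changes whose sign turned ran from -0.089 to 0.046 for Atg7 (turned without SMA 4), from -0.040 to 0.077 for Gabarap (without SMA 3), from -0.026 to 0.092 for Gabarapl2 (without SMA 3, and without WT 3, at -0.00069) and from -0.045 to 0.060 for Lamp1 (without WT 5, and without SMA 3, at 0.0089). None of the genes or shares whose sign turned had passed with all libraries and TMM scaling. The cause was not tested. The length of all annotated exons, chosen after seeing the data, and raw counts changed no call of a share, though the leading ATG8 gene differed with them.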
